A study of Mus musculus with 4 samples.

Results

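Cytotoxic lymphocytes kill target cells with proteins stored in granules, and T cells recognise antigen through a receptor coupled to the CD3 chains. The genes described here were 10 in number: Gzma, Gzmb, Prf1, Nkg7 and Klrd1 of the cytotoxic programme of natural killer (NK) and T cells, and Cd3d, Cd3e, Cd3g, Lck and Il7r of T cells. Their values were read from the probe sets that the platform annotation pairs with 1 of these genes only. Of the 10 genes, 9 had such probe sets, 11 in all among the 45101 of the array table and 9 of 18193 genes. Expression of Lck was not analysed here. The platform annotation paired 0 probe sets with several genes that included a member.

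The series holds 4 Affymetrix arrays of T6(6) leukemic blasts, sorted as GFP+ and taken straight from 2 untreated mice. Each mouse gave 1 array of peripheral blood and 1 of spleen, so each tissue has 2 arrays. The leukemia is an M7 (megakaryoblastic) leukemia that came from fetal progenitors with the Gata1s mutation after retroviral insertional mutagenesis, and every array carries that history; there is no normal or wild-type control. Both mice have the same T6(6) designation (strain, age and sex: not given in the sources used here). Standard errors (SE) therefore rest on how far these 2 animals differ, but limma draws them toward the spread typical of all genes tested. For genes that differed most between the mice, such as Gzma, they understate how far the animals differ. The sorted cells carried the platelet genes of their label: Pf4 lay between 7507 and 8680 and Itga2b between 4237 and 4990 in intensity. Array medians lay between 103.7 and 110.6.

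In the mouse, granzymes A and B (Gzma, Gzmb) are serine proteases that enter target cells through pores made by perforin (Prf1). Nkg7 is a membrane protein of cytotoxic granules, and Klrd1 (CD94) pairs with NKG2 chains as a receptor of NK cells. Cd3d, Cd3e and Cd3g form the signalling complex of the T cell receptor, Lck is the kinase that phosphorylates it, and Il7r is the receptor chain through which interleukin 7 keeps naive T cells alive.

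Gzma, Gzmb, Prf1 and Klrd1 took 1 order over the 4 arrays, and Nkg7 and the T cell genes took others. The first 4 genes peaked in the blood of mouse 2 and had their lowest values in its spleen, at least 2-fold below, while Nkg7 was nearly level. For Prf1 this was its brighter probe set, and the second was nearly level. Il7r also had its highest and lowest values there, by a smaller step. Cd3e, Cd3g and Il7r varied less, and none of the 8 members tested passed the comparison of spleen with blood over all genes.

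**Figure D1:**
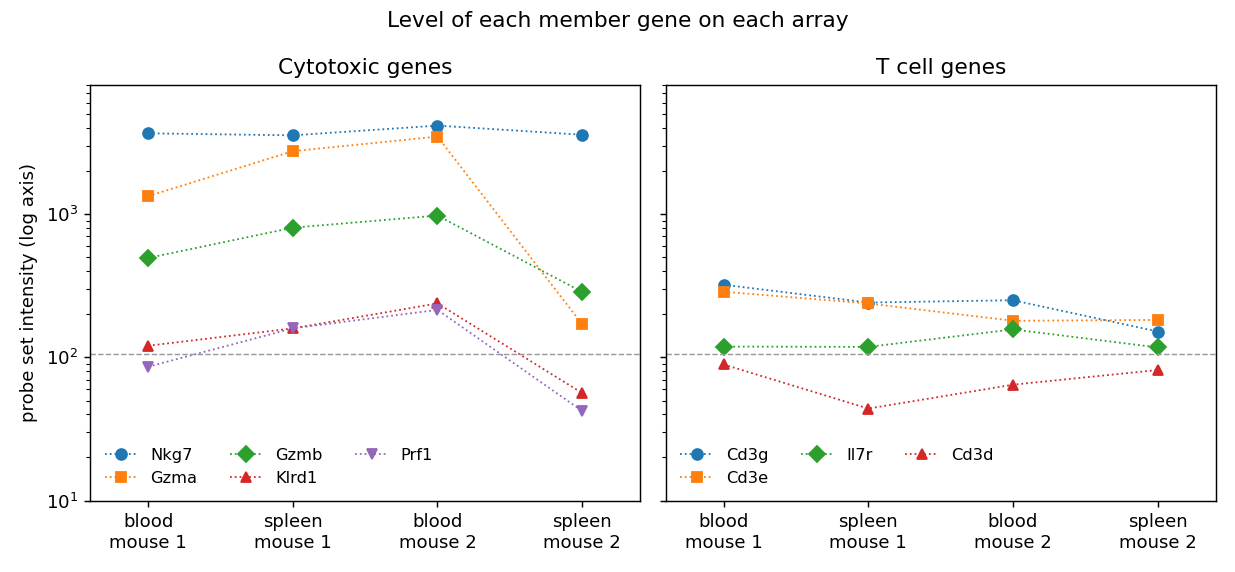
Probe set intensity (log axis) of the 9 measured genes on the 4 arrays, 1 point per array, with the cytotoxic genes on the left and the T cell genes on the right; the dashed line marks the brightness filter at 106, and dotted lines only join the points of a gene. Gzma, Gzmb, Klrd1 and Prf1 peak in the blood of mouse 2 and are lowest in its spleen, and Nkg7 stays between 3556 and 4159.

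Gzma stood at an intensity of 1338 in the blood sample and 2757 in the spleen sample of mouse 1, against 3486 and 171 in those of mouse 2. Spleen was thus the higher tissue in mouse 1 and by far the lower in mouse 2, and the values of the 2 tissues overlapped. On the log2(value + 16) scale, which understates changes of dim genes, spleen minus blood was 1.03 in mouse 1 and -4.23 in mouse 2. The second difference equals an 18.8-fold lower level in spleen. Averaged over the mice the difference was -1.60 ± 1.19 (SE, 2 arrays per tissue), and limma gave an adjusted p of 0.615. Between the mice, blood was higher in mouse 2 by 1.37 and spleen differed by -3.89 (mouse 2 minus mouse 1), each from 1 array per side and with no test. In sorted bulk samples, fewer cells of a type and less RNA per cell cannot be told apart, here and below.

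Gzmb stood at 495 (blood) and 805 (spleen) in mouse 1, against 979 and 287 in mouse 2. The arrays stood in the same order as for Gzma, with smaller gaps and overlapping tissues. Spleen minus blood was 0.68 in mouse 1 and -1.72 in mouse 2, and the mean difference was -0.52 ± 0.51 (SE), with an adjusted p of 0.713 in limma.

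Prf1 was read by 2 probe sets that disagreed. The brighter one, used as its main value, stood at 86.1 (blood) and 160 (spleen) in mouse 1, against 215 and 42.3 in mouse 2, again in the order of Gzma. Its differences of spleen minus blood were 0.78 and -1.98, and the mean was -0.60 ± 0.58 (SE), with an adjusted p of 0.703 in limma. The second probe set stood at 76.3 (blood) and 69.3 (spleen) in mouse 1, against 56.3 and 61.3 in mouse 2, a nearly level profile with differences of -0.11 and 0.10. The perforin signal is dim: the mean of the brighter probe set, 109 after averaging on the log2 scale, lay just above the brightness filter of 106, and on the mean of both probe sets the differences were 0.33 and -0.94.

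Klrd1 stood at 121 (blood) and 160 (spleen) in mouse 1, against 238 and 56.4 in mouse 2. This receptor gene followed the same order of arrays. Spleen minus blood was 0.36 and -1.81 in mouse 1 and mouse 2, and the mean difference was -0.73 ± 0.46 (SE), with an adjusted p of 0.560 in limma.

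Nkg7 did not share this pattern. It stood at 3675 (blood) and 3556 (spleen) in mouse 1, against 4159 and 3590 in mouse 2, 3745 ± 280 over the arrays (SD, n = 4). Both spleen values lay below both blood values, by small steps, and overlapped them once arrays were centred: spleen minus blood was -0.05 in mouse 1 and -0.21 in mouse 2. The mean difference was -0.13 ± 0.12 (SE), with an adjusted p of 0.692 in limma. Across the 4 arrays Nkg7 ranged over 0.22 log2 units and Gzma over 4.23, so these granule genes did not vary alike. No test of that inequality was run.

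**Figure D2:**
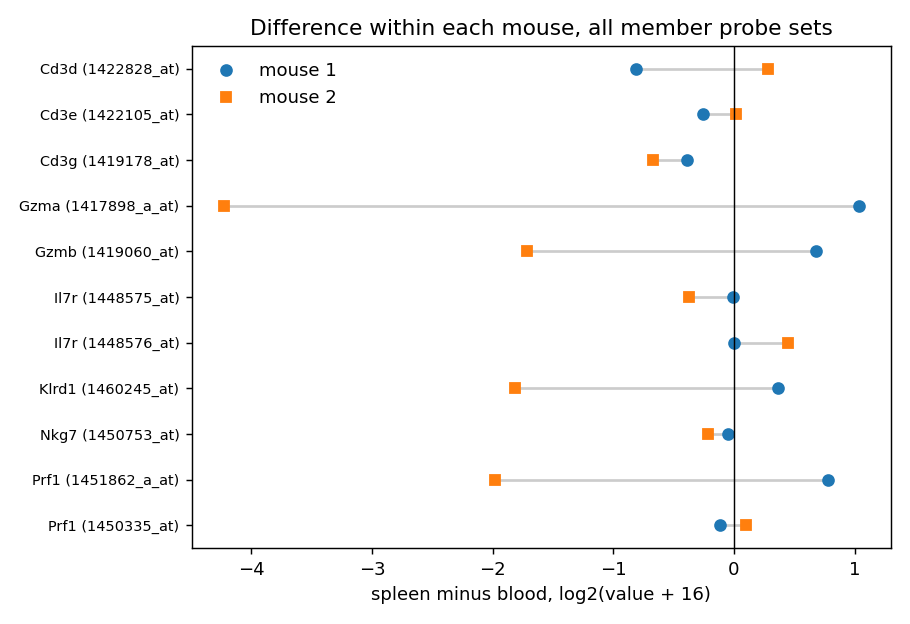
Spleen minus blood on the log2(value + 16) scale within mouse 1 (circles) and mouse 2 (squares), 1 difference per mouse, for the 11 probe sets; a grey line joins the mice. Gzma spans from 1.03 to -4.23, while both probe sets of Il7r, the second of Prf1 and Nkg7 lie within 0.45 of 0 in both mice.

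The promoters of the measured granule genes are shown because Gzma, Gzmb and Prf1 followed 1 order of arrays and Nkg7 did not. The windows are the 250 bases before the start in the RefSeq promoter table of GRCm38.p6, 5′ to 3′ on the strand of the gene. They lie at chr13:113100982-113101231 on the minus strand for Gzma, chr14:56262335-56262584 on the minus strand for Gzmb, chr10:61297586-61297835 on the plus strand for Prf1 and chr7:43436888-43437137 on the plus strand for Nkg7. Capitals mark matches, on either strand, to the motifs described after the sequences.
Gzma: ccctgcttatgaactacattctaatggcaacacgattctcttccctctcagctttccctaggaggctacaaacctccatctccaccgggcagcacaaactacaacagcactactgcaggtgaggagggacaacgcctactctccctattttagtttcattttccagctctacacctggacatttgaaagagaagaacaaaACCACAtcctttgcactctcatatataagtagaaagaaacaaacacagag
Gzmb: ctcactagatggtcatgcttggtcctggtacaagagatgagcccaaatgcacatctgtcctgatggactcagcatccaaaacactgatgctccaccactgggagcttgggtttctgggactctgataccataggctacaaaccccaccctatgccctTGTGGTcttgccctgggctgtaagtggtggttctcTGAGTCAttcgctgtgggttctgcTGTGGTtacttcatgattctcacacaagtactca
Prf1: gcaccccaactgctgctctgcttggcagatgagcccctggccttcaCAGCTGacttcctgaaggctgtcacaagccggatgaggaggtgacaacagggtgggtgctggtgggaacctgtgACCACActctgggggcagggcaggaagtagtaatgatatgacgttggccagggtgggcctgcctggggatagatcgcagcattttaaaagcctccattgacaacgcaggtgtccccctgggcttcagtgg
Nkg7: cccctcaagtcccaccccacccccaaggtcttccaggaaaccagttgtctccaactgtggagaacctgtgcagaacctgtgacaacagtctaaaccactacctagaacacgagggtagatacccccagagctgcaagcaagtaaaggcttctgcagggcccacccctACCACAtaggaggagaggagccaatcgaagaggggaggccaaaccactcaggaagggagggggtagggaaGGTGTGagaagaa

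The motif TGTGGT of RUNX factors, which act in lymphoid and megakaryocytic cells, occurred in each of these 4 windows. It began 50 bases before the start in Gzma, 93 and 34 bases in Gzmb, 130 bases in Prf1 and 83 bases in Nkg7, counted at the left end of the match. It was thus in the level gene as well as in the variable ones. It also occurred in 1 of the 2 windows of Lck and not in those of Cd3d, Cd3e, Cd3g or Il7r, and 14.0% of 32851 windows held it. The AP-1 motif TGANTCA was found in Gzmb (6.75% of windows), the E-box CAGCTG in Prf1 (13.0%) and the T-box motif GGTGTG in Nkg7 and Cd3d (16.3%). Of 3 further motifs, the ETS motif GAGGAA was in Cd3d, Cd3e and Lck (23.3%), the GATA motif AGATAA in Cd3g (9.99%) and the TATA box TATAAA in none (12.4%). Both strands were searched and no match overlapped another. These matches describe letters and are not binding sites. Klrd1 had no entry.

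The T cell genes took other orders of arrays. Cd3g stood at 322 (blood) and 242 (spleen) in mouse 1, against 251 and 152 in mouse 2. Both spleen values lay below both blood values, the spleen of mouse 1 by a small margin under the blood of mouse 2. Spleen minus blood was -0.39 and -0.67, and the mean of -0.53 ± 0.23 (SE) had an adjusted p of 0.424 in limma, the lowest of the tested members.

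Cd3e stood at 288 (blood) and 238 (spleen) in mouse 1, against 180 and 183 in mouse 2. The arrays separated by mouse more than by tissue. Spleen minus blood was -0.26 and 0.02, and the mean of -0.12 ± 0.23 (SE) had an adjusted p of 0.866 in limma. Cd3d stood at 89.2 (blood) and 43.9 (spleen) in mouse 1, against 64.5 and 81.7 in mouse 2, with differences of -0.81 and 0.28. Its mean on the log2 scale, 67.9 as an intensity, was under the filter and it was not tested. The 3 CD3 chains, which assemble into 1 complex, therefore had 3 different orders of the arrays.

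Il7r stood at 119 (blood) and 118 (spleen) in mouse 1, against 157 and 117 in mouse 2. Blood of mouse 2 stood above the other arrays, which were alike. Spleen minus blood was -0.01 and -0.37, and the mean of -0.19 ± 0.15 (SE) had an adjusted p of 0.634 in limma. With arrays centred on the median or quantile normalized, the difference in mouse 1 was 0.02, above 0. The second probe set of Il7r was near 0 on each array, between -0.91 and 6.63.

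Of the measured members, 8 of 9 passed the brightness filter on the mean of the 4 arrays, Prf1 just inside it and Cd3d outside. With limma 0 of these 8 were called, against 0% of the 11614 genes tested, and 0 of 8 and 1443 of 11614 had an unadjusted p under 0.05. The differences were in opposite directions in the mice for 5 of 8 (Gzma, Gzmb, Prf1, Klrd1 and Cd3e), against 36.3% of the genes tested. Spleen was lower in both mice for 3 of 8 (Cd3g, Il7r and Nkg7), against 25% of genes, and the same 3 had both spleen arrays below both blood arrays, against 17.6%. With arrays centred on the median, Il7r left both counts and Nkg7 the second, so that Cd3g alone had tissues that did not overlap; with quantile normalization or the mean of probe sets Il7r left both. Spleen was higher in both mice for 0 of 8, against 38.5%. The median of spleen minus blood was 0.18 in mouse 1 and -1.19 in mouse 2 for the 8 members, and 0.07 and 0.01 for the genes tested.

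Gzma, Gzmb, Prf1 and Klrd1 differed between arrays by more than most genes tested, and Nkg7 did not. A range of at least 1 log2 unit over the arrays was seen for 5 of 8 members (Gzma, Gzmb, Prf1, Klrd1 and Cd3g), against 2.97% of genes tested; Cd3g, at 1.01, left it under the higher offset and both scalings, and Prf1 with the mean of its probe sets. In mouse 2, spleen was at least 2-fold lower for 4 of 8 (Gzma, Gzmb, Prf1 and Klrd1), against 1.21% of genes, and Prf1 left this count too with the mean of its probe sets. These 4 had the full order of blood of mouse 2, spleen of mouse 1, blood of mouse 1 and spleen of mouse 2 from high to low, against 4.71%, and the same 4 had it under each offset, scaling and probe set rule tried. With Il7r, 5 of 8 were highest in the blood and lowest in the spleen of mouse 2, against 11.9%; Il7r left that count under centring, quantile normalization and the mean of probe sets. The genes were chosen with such results known, so these counts are a description. Without the spleen of mouse 2, the fitted difference was 0.35 for Gzma, 0.20 for Gzmb, 0.19 for Prf1 and -0.09 for Klrd1.

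**Figure D3:**
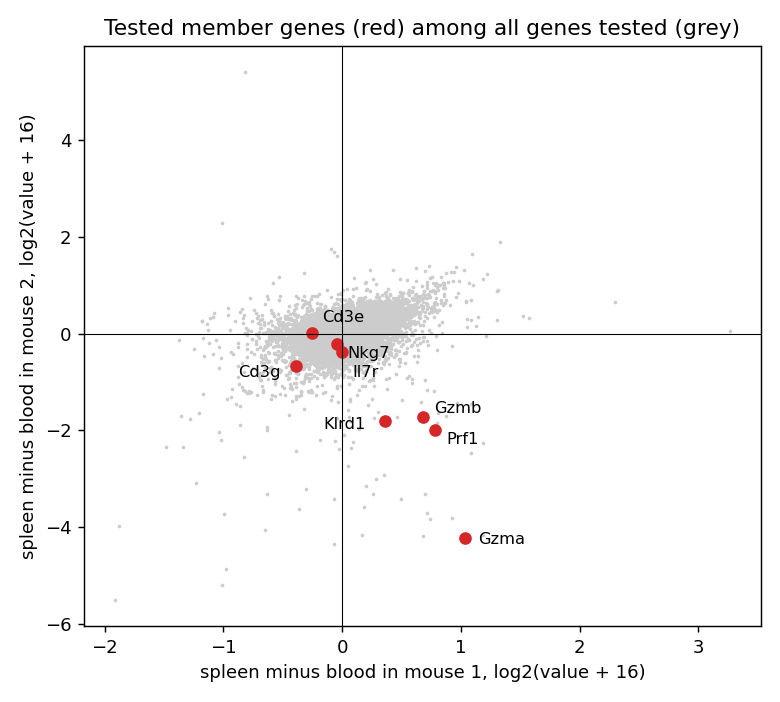
Spleen minus blood on the log2(value + 16) scale in mouse 1 (horizontal) and mouse 2 (vertical), with 1 grey point for each of 11614 genes tested and a red point for each of the 8 tested members. Gzma, Gzmb, Prf1 and Klrd1 lie to the right of 0 and below -1.7, and Nkg7, Il7r, Cd3e and Cd3g lie near the bulk of genes.

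Genes with the most similar profiles were sought for the 5 members that ranged over at least 1 log2 unit, by the root mean square distance of the 4 centred log2 values, among 340 other genes with that range. Ncr1, the NK receptor NKp46, was the nearest gene to Gzmb (0.09), Klrd1 (0.05) and Prf1 (0.15), at 94.2 (blood) and 136 (spleen) in mouse 1, against 195 and 47.8 in mouse 2. Nearest to Gzma were Ms4a4b, a membrane protein of T cells (0.18), the phosphodiesterase Smpdl3a (0.28) and the myeloid chemokine Ccl6 (0.31). In the spleen of mouse 2 they stood near 0, at 7.94, 14.3 and 13.1, where Gzma stood at 171. The second probe set of Ms4a4b did not share this profile, and on the mean of both the gene differed by 0.22 in mouse 1 and -1.94 in mouse 2. For Rgs2, 2 of 4 probe sets had the direction of the main one in mouse 1 and 3 of 4 in mouse 2. The other neighbours were Gimap4, a lymphocyte GTPase, and the G protein regulator Rgs2 for Gzmb, the protease cathepsin H (Ctsh) and Rgs2 for Klrd1, and the inhibitor of DNA binding Id2 and Ctsh for Prf1. For Cd3g they were Pigl (0.08), Azgp1 (0.10) and the monoamine transporter Slc18a2 (0.10), which gives a different company of genes. The distances rest on 4 arrays.

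Other genes of the granule and killing machinery were followed on a list of 22, of which 13 were tested and 0 called by limma, with 0 at an unadjusted p under 0.05. The mice had opposite directions for 8 of the 13, spleen was lower in both for 2 and higher in both for 3, with medians of 0.17 in mouse 1 and -0.13 in mouse 2. Ccl5, a chemokine of effector lymphocytes, had the profile of Gzma, at 671 (blood) and 1096 (spleen) in mouse 1, against 1511 and 139 in mouse 2. Serpinb9, the inhibitor of granzyme B, differed by 0.26 and -0.92. Ctsw, a protease of cytotoxic cells, differed by 0.20 and -0.74. The proteoglycan serglycin (Srgn), which packs granule contents, differed by -0.04 and -0.07. Ctsc, which activates granzymes, differed by 0.06 and -0.13, and by -0.01 and -0.39 on the mean of its 3 probe sets. Gzmf (-0.31 and -0.37), Cst7 (0.42 and 0.21) and Lamp1 (0.22 and 0.16) had 1 direction in both mice. Gzme, also above the filter, differed by 0.17 and -0.04. The other granzymes, Gzmc, Gzmd, Gzmg, Gzmk, Gzmm and Gzmn, were under the filter.

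NK cell receptors and factors numbered 21 on the list, 19 measured and 13 tested. With limma 0 were called, and 2 of the 13, Cd160 and Tyrobp, had an unadjusted p under 0.05, beside the 1443 of 11614 genes tested. Directions were opposite in the mice for 6, spleen was lower in both for 3 and higher in both for 4, and the medians were 0.12 in mouse 1 and -0.48 in mouse 2. Of the 13, 7 were highest in the blood and lowest in the spleen of mouse 2, against 11.9% of genes tested. The full order of arrays of Gzma was seen for 5, against 4.71%. Among these, Ncr1 differed by 0.46 and -1.72, and Klrg1, an inhibitory receptor of mature cells, by 0.14 and -1.17. Cd160 (-0.69 and -0.48) and the adaptor Tyrobp (-0.28 and -1.18), which myeloid cells also use, were lower in both mice, for Cd160 in 2 of its 4 probe sets. Cd96 (0.30 and 0.32) and the chemokine Xcl1 (0.18 and 0.07) were higher in both.

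The T cell receptor complex and its signalling had 25 listed genes, 23 measured and 16 tested, of which 0 were called by limma. An unadjusted p under 0.05 was seen for 1 of the 16, beside the 1443 of 11614 genes tested. It was the costimulator Icos (-1.17 and -0.08, with 2 of its 3 probe sets of this direction in mouse 1). The pattern of Gzma was not seen among the tested genes: 0 of 16 were highest in the blood and lowest in the spleen of mouse 2, against 11.9% of genes tested. Under the filter, Sh2d1a had these extremes, at 10.6 (blood) and 7.53 (spleen) in mouse 1, against 30.8 and -1.23 in mouse 2. Also under it, Thy1 differed by 0.31 and -0.73, and Cd27 by -0.36 and 0.50. The medians were 0.05 and -0.01. Directions were opposite for 7, lower in both for 4 and higher in both for 5. The adhesion receptor Cd2 differed by -0.30 and -0.27, the adaptor Lat by 0.22 and 0.31, the phosphatase-like Ubash3a by 0.28 and 0.20 (1 of its 2 probe sets of this direction in mouse 1), the adaptor Sh2d2a by 0.25 and -0.29 and the kinase Prkcq by -0.14 and 0.53. Some surface genes of T cells were dim: Thy1 lay between 28.7 and 59.1, Cd5 between 47.0 and 57.4, Cd28 between 19.3 and 26.0 and Cd247, the zeta chain, between 66.6 and 95.0, each under the filter. Cd8a, which marks killer T cells, lay above the filter between 170 and 222 by the brightest of its 5 probe sets. The others had mean intensities of 115, 72, 64 and 19. Cd4, of helper T cells, lay between 238 and 425.

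T cell transcription factors had 12 listed genes and 5 tested, with 0 called by limma. Of the 5, 3 had an unadjusted p under 0.05, beside the 1443 of 11614 genes tested. Bcl11b (0.30 and 0.81, with 1 of its 4 probe sets of this direction in mouse 2) and Gata3 (0.23 and 0.48) were higher in spleen in both mice, Zbtb7b (-0.17 and -0.68, with 1 of its 2 probe sets of this direction in mouse 1) was lower, as was Tox (-0.35 and -0.20), and Id2 had the order of Gzma (1.18 and -2.27). In the interleukin 7 pathway 10 of 11 genes were tested and 0 were called. Of these, 2, Cish and the survival gene Mcl1, had an unadjusted p under 0.05, beside the same share of all genes tested. The target Cish, an inhibitor of cytokine signals, differed by -0.20 and -0.65, Il7 itself by -0.36 and -0.34 (1 of its 2 probe sets of this direction in mouse 2), and Stat5a, which relays the signal, by 0.22 and 0.23. The medians of this list were -0.02 and 0.06, near those of the genes tested.

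**Figure D4:**
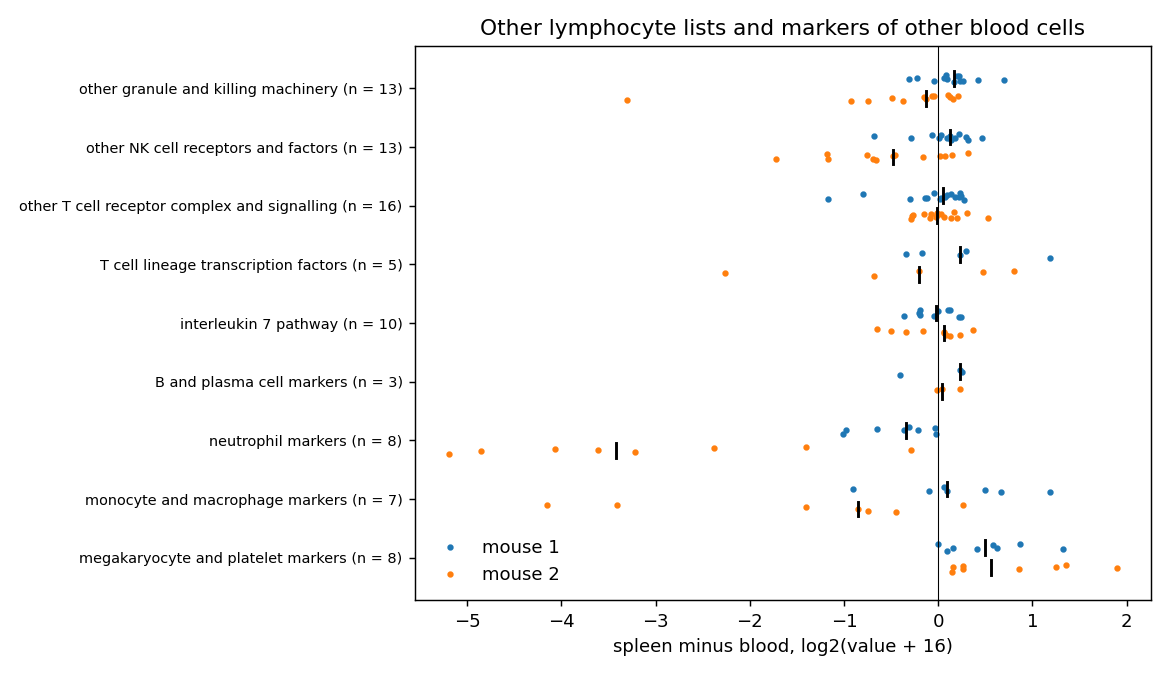
Spleen minus blood on the log2(value + 16) scale in mouse 1 (upper row of each list) and mouse 2 (lower row), 1 point per tested gene and a black bar at the median, for 5 lymphocyte lists and 4 lists of other blood cell markers. Medians in mouse 2 are -3.42 for neutrophil, -0.86 for monocyte and macrophage and -0.48 for NK cell genes, and -0.01 for T cell receptor genes.

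Some markers of monocytes and macrophages, and in mouse 2 those of neutrophils, varied alongside Gzma, Gzmb, Prf1 and Klrd1. The summed intensity of the 10 measured neutrophil markers was 6886 (blood) and 4176 (spleen) in mouse 1, against 17238 and 1188 in mouse 2. Of the 8 tested, 7 were highest in the blood and lowest in the spleen of mouse 2, against 11.9% of genes tested. All 8 were lower in spleen in both mice, against 25%, unlike Gzma in mouse 1. In limma 6 of the 8 had an unadjusted p under 0.05, beside 1443 of 11614 genes tested, and 0 were called. The 11 measured monocyte and macrophage markers summed to 1651, 2364, 3607 and 1247 in the same order of arrays. The full order of Gzma was seen for 4 of 7 tested, against 4.71% of genes tested. Among these, Mpeg1 stood at 71.8, 184, 708 and 24.7, and Csf1r, the receptor for macrophage growth factor, at 270, 387, 1326 and 110. In the same order, the neutrophil gene S100a9 stood at 2333, 1146, 5862 and 144. The neutrophil peptide gene Camp was at -6.46 in spleen of mouse 2, and C1qa was below 0 on 3 arrays and 132 in spleen of mouse 1. Other monocyte and macrophage markers did not follow Gzma: Cd68 was lower in spleen of both mice, by -0.10 and -0.86. The median of the 7 tested was 0.10 in mouse 1, near that of all genes tested, and -0.86 in mouse 2. The part of such cells in the values of Gzma, Gzmb, Prf1 and Klrd1 was not tested.

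The sums of the B cell, T cell receptor and platelet lists were steadier. B and plasma cell markers, 10 measured, summed to 1119 and 1217 in mouse 1 and 1094 and 1099 in mouse 2, with Cd79a between 47.8 and 57.8 and Cd79b between 9.34 and 24.1. The 23 measured T cell receptor genes summed to 7351, 7395, 7851 and 7824. The brightest of them were Fyn, between 1141 and 1363, and Lcp2, between 1112 and 1259. Less steady were the 9 members, at 6532, 8080, 9730 and 4680. Most of these sums came from Nkg7, at 3675, 3556, 4159 and 3590, and Gzma, at 1338, 2757, 3486 and 171. The 19 measured NK cell genes summed to 8720, 8701, 9342 and 6441, also lowest in the spleen of mouse 2. Of these sums Tyrobp, which myeloid cells also use, gave 3761, 3084, 4205 and 1842, much of the fall in mouse 2. Megakaryocyte and platelet markers, 9 measured, summed to 16452 and 19067 in mouse 1 and to 16478 and 20810 in mouse 2, higher in spleen of both, as 7 of 8 tested genes were. Of these 8, 5 had an unadjusted p under 0.05 in limma, beside 1443 of 11614 genes tested, and 0 were called. Spleen was higher in both mice for 38.5% of genes tested.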

How the data were processed

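The authors deposited linear probe set intensities, judged from their range; the summary, background correction and scaling behind them are not given in the sources used here. Negative values were raised to 0 before log2(value + 16). Of 45101 probe sets, 34945 were paired with 1 gene symbol, 34741 of them updated through the RefSeq table of GRCm38.p6. A gene took its probe set with the highest mean, and the 11614 genes at or above the median probe set, an intensity of 106, were tested. Spleen and blood were compared with limma 3.58.1 (lmFit, eBayes, two-sided, R 4.3.3) on tissue alone, with Benjamini-Hochberg adjustment over all tested genes, with a threshold of 0.05. With 2 arrays against 2, an exact permutation p cannot go below 0.333. The number of arrays limits the precision.

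The members and lists were chosen with earlier results of these data known. Genes named besides the members were, per list, up to 3 with the largest smaller difference of 1 direction in both mice and 2 of opposite directions, the 3 nearest profiles and genes given for their level. Ctsw, Srgn, Ctsc, Gzme, Klrg1, Xcl1, Icos, Zbtb7b, Mcl1, Thy1, Cd5, Cd28, Cd247, Camp, C1qa, Cd79b and the granzymes under the filter were added after their values were seen. So were Sh2d1a, Cd27, Fyn, Lcp2, C1qb, C1qc, Cd163 and Vcam1. Alternatives were the offset, normalization, filter, averaging of probe sets, prior, a mouse block and leaving out each array. Arrays of the same mouse number are paired, since the source labels name the same mouse for both; over genes, the mouse difference in blood and that in spleen had r = 0.10.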

Additional observations from a re-analysis of the deposited data

Results flagged for a closer look

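For 6 genes the difference of spleen minus blood had opposite signs in the 2 mice, 1 array per tissue and mouse, and the difference between the mice was not tested. That of mouse 2 minus that of mouse 1 was -5.26 log2 units for Gzma, -2.77 for Prf1, -2.40 for Gzmb and -2.17 for Klrd1, each higher in spleen of mouse 1 and lower in spleen of mouse 2. It was 1.09 for Cd3d, which is under the brightness filter, and 0.27 for Cd3e, where the difference in mouse 2 was 0.02.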

How the results depend on the processing

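The number of genes called was 0 with limma and with most alternatives. It was 45 with an intensity trend in the prior, and from 0 to 20 when 1 array was left out, the 20 without spleen replicate 1; none of the 8 tested members was among them. With mouse as a replicate block 0 genes were called, and no call of a member changed. For the members, 68 of 69 fitted differences under the other alternatives kept their direction and stayed uncalled. The exception was Il7r with the mean of its probe sets, 0.017. Many of these directions were fixed in advance. The filters, the prior and the mouse block cannot change a fitted difference here, nor can averaging for a gene with 1 probe set. Leaving out 1 array kept 27 of 32 and turned 5: the differences ranged from -3.54 to 0.35 for Gzma, from -1.24 to 0.20 for Gzmb, from -1.40 to 0.19 for Prf1 and from -0.43 to 0.20 for Cd3e. The upper ends of the first 3 came without spleen replicate 2, and for Cd3e without blood replicate 1. Adjusted p-values of limma over all alternatives lay between 0.0683 and 0.927 for Gzma and between 0.186 and 0.858 for Cd3g. The counts of members lower in spleen in both mice, opposite in the mice, and highest in the blood and lowest in the spleen of mouse 2 stayed within 1.5 times under each offset, scaling and probe set rule. The count whose tissues did not overlap went from 3 to 1 under centring. A lone array left in a tissue is assumed to vary like the others. Brightness limits Prf1, Klrd1, Il7r and Cd3d, whose differences depend on the offset.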

Other observations

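Some NK cell genes were too dim to be tested. The activating receptor Cd226 stood at 101 (blood) and 111 (spleen) in mouse 1, against 118 and -0.24 in mouse 2, which is the order of arrays of Klrd1. Klrc1, an NKG2 partner of CD94, had values of 18.8 and 46.8 in mouse 1 and 29.9 and -3.82 in mouse 2. Only 1 of the 2 probe sets of Klrc1 had these directions, and the other had a negative mean. Klrc2, from the same list, went the other way, with 14.9 and 12.4 in mouse 1 and 20.6 and 24.3 in mouse 2. The cytokine gene Ifng had 4.72 and 26.0, then 29.0 and 10.8. These genes were chosen after their values were seen, values this dim depend on the offset, and no test was run.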
